A study of Arabidopsis thaliana with 6 samples.

Results

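The genes described here are the 39 nuclear genes of mitochondrial complex I, with its gamma carbonic anhydrases, its acyl carrier proteins and L-galactono-1,4-lactone dehydrogenase (GLDH). They were taken by gene identifier from a table of 27444 Arabidopsis genes, and all 39 were found. Each has a count and an FPKM value (fragments per kilobase of exon, scaled to library depth) in 6 libraries. Of these, 3 were *lon1-2atg5-1* and 3 were *atg5-1*. Both lines are in the Columbia background, were grown in long days without further treatment, and carry the T-DNA insertion *atg5-1* in ATG5 (AT5G17290), which disables autophagy. *lon1-2atg5-1* carries in addition the T-DNA insertion *lon1-2* in LON1 (AT5G26860), the gene of a protease of the mitochondrial matrix. Whole seedlings were used, and their age is given as 10 days in one description of the growth and as 7 days in another. Each genotype is 1 mutant line, and *lon1-2* alone and the wild type were not analysed here. The comparison therefore asks how *lon1-2* changes transcripts on a background that already carries *atg5-1*.

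Complex I (NADH:ubiquinone oxidoreductase) is the entry point of electrons from NADH into the respiratory chain and pumps protons across the inner mitochondrial membrane. Its peripheral arm carries the flavin and iron-sulfur clusters, its membrane arm carries the proton channels, and the plant enzyme has in addition a matrix domain of gamma carbonic anhydrases. In plants some subunits, named nad, are encoded by the mitochondrial genome, and the nuclear subunits have to be imported and joined with them. The deposited tables hold 0 genes of the organelle genomes, so only the nuclear side was measured. Subunits are named here after their human homologues, with a and b for the copies of duplicated genes.

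Most nuclear complex I genes had higher transcript levels in *lon1-2atg5-1*. Of 39 members, 33 were higher and 0 were lower at an adjusted p under 0.05 in the quasi-likelihood test of edgeR, fitted to all 20157 genes that passed the filter on low counts. At an unadjusted p under 0.05, 34 were higher and 0 lower, and DESeq2 called 31 higher and 0 lower. All 39 passed that filter, with 311 to 5341 raw counts per library. The members' share of 84.6% higher stood against 27.7% higher and 25.8% lower of all genes tested. Among the 8445 tested genes with mean counts in the members' range, 31.7% were higher. The same 33 members had every *lon1-2atg5-1* library above every *atg5-1* library, a pattern that 32.3% of all genes tested and 36.0% of those in the same range of counts showed. These are counts scaled by TMM (trimmed mean of M values); in FPKM, which is not scaled in that way, 30 members were separate and NDUFA12, gamma CAL1 and NDUFS5a overlapped. The changes were small: the median log2 fold change of the members was 0.38, a ratio of 1.30, against -0.00034 for all genes tested. A total of 8 members rose by more than 1.5-fold, a share of 20.5%, against 14.0% of all genes tested and 10.9% of those in the members' range of counts. These were mtACP2, NDUFA8a, NDUFB10b, gamma CA3, GLDH, gamma CA2, NDUFA5 and AT2G31490. Replicate 3 was the lowest *lon1-2atg5-1* library in 33 of the 39 members. Of the members that rose, 28 also passed under each of the 14 alternative settings. The other 5, each discussed with its gene, were gamma CA1, gamma CAL1, NDUFS5a, NDUFS6 and NDUFA12. In whole seedlings, more cells of a type and more RNA per cell cannot be told apart.

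**Figure D1:**
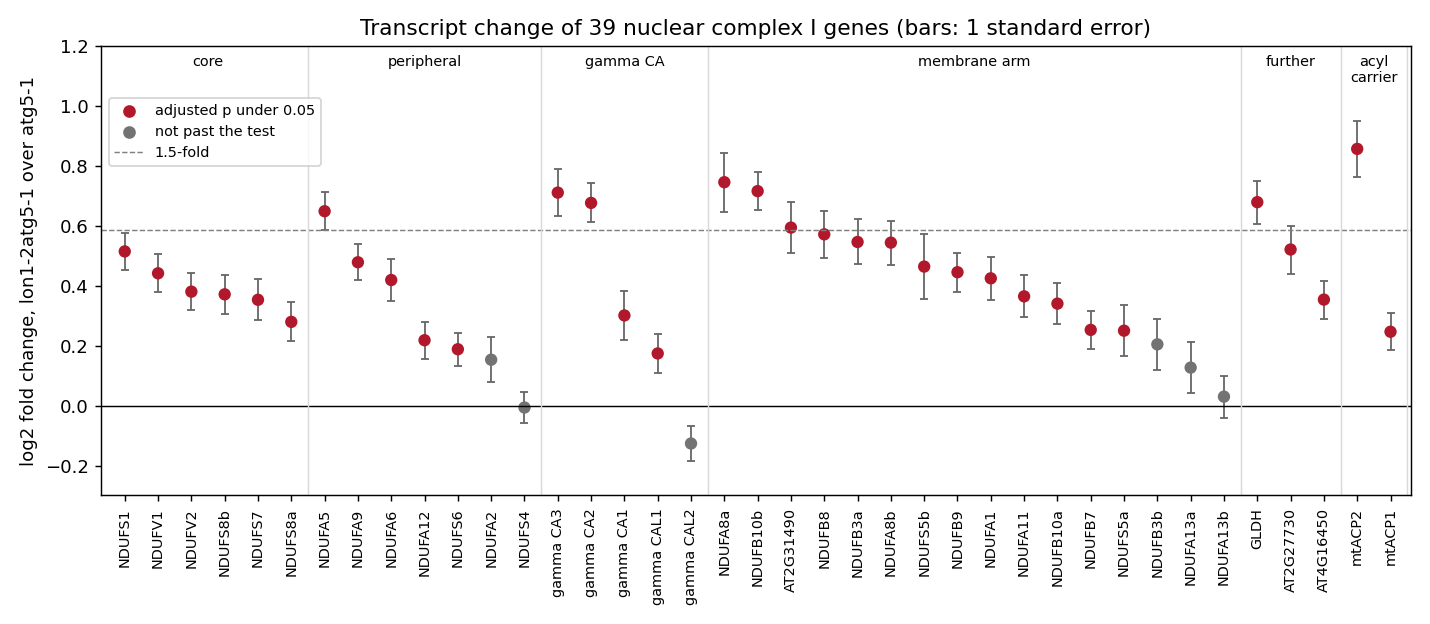
Log2 fold change (*lon1-2atg5-1* over *atg5-1*, bars 1 standard error) of the 39 members, grouped by their place in the complex. The dashed line marks a 1.5-fold change. The 33 members past the test are red and all lie above 0, and the 6 grey members lie between -0.13 and 0.20.

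**Figure D2:**
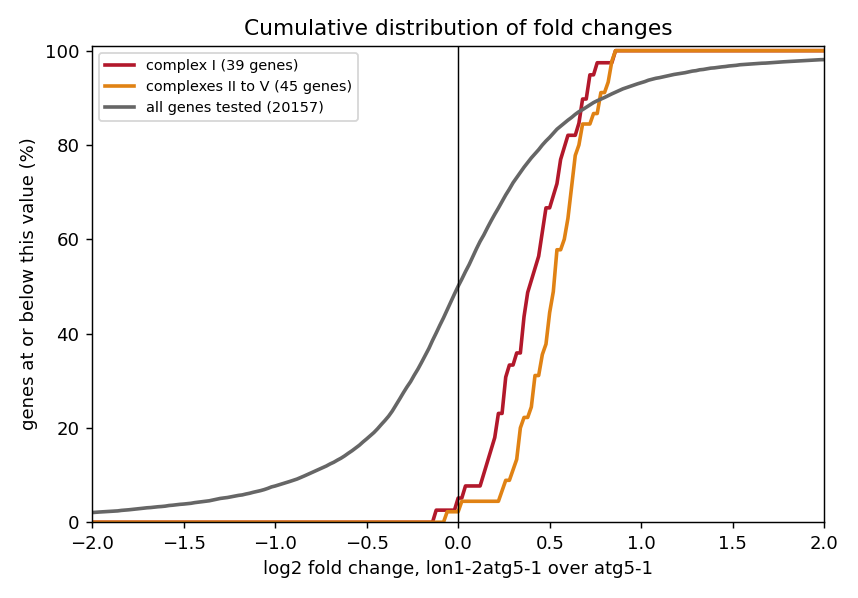
Cumulative share of genes (percent) by log2 fold change of *lon1-2atg5-1* over *atg5-1*, for the members, for 45 genes of complexes II to V and for all 20157 genes tested. The curve of the members crosses its middle at 0.38, that of complexes II to V at 0.52 and that of all genes near 0.

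The organ markers of the seedlings also moved between the genotypes. The 6 root marker genes summed to 48.0, 56.4 and 54.4 FPKM in *lon1-2atg5-1*, against 117.9, 100.6 and 109.9 FPKM in *atg5-1*, and the groups did not overlap. Of these 6, 4 fell, from COBL9 with a log2 fold change of -1.82 to PHT1;1 with -1.10, and 0 rose. The other 2 did not pass the test. SHR had a log2 fold change of -0.36 (adjusted p = 0.0534). SCR went the other way, with 0.11 (adjusted p = 0.160), and was higher in each *lon1-2atg5-1* library than in any *atg5-1* library. The 6 leaf marker genes, which encode light-harvesting proteins, the small Rubisco subunit and a Calvin cycle enzyme, summed to 23326, 25442 and 25079 FPKM in *lon1-2atg5-1* and to 21158, 21279 and 21592 FPKM in *atg5-1*, again without overlap. The separation lay in RBCS1A, the Rubisco gene: the other 5 summed to 6489, 7068 and 6020.1 FPKM in *lon1-2atg5-1* and to 6491, 6619 and 7144 FPKM in *atg5-1*, which overlapped. Of the 6 leaf markers, 2 rose, 1 fell and 3 did not pass the test. Of 5 markers of dividing cells, the cyclin CYCB1;1 rose with a log2 fold change of 0.80 and 4 did not pass. None of the 17 markers was at 0 in any library. The part of organ proportions in the complex I result was not tested. LON1 itself had 194, 131 and 93.3 normalized counts in *lon1-2atg5-1*, against 644, 539 and 611 in *atg5-1*, so that some transcript remained in the mutant and the groups were far apart (log2 fold change -2.10, SE 0.22, adjusted p = 0.000141). ATG5, mutated in both lines, had 1305, 965 and 625 normalized counts in *lon1-2atg5-1*, against 495, 531 and 442 in *atg5-1*, again without overlap (log2 fold change 0.98, SE 0.23, adjusted p = 0.00786).

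Promoters of the members were read next, as a feature that the choice of members did not use. Site II elements, TGGGCC or TGGGCT, are known from promoters of plant genes for ribosomal and respiratory proteins, where factors of the TCP family bind them. Windows of 250 bases before to 50 bases after the annotated gene start were searched on both strands, and matches that overlap, as in TGGGCCCA, were counted separately. At least 1 match was found in 29 of 39 members (74.4%), against 21.7% of 27443 protein-coding genes and 25% of those tested. At least 2 matches were found in 24 members (61.5%), against 13.7% of all protein-coding genes. Before the start alone the share was 59% of members, 19.2% of all protein-coding genes and 22% of those tested. Of 69 matches in the members, 48 began within the 100 bases before the start, 2 lay farther upstream and 19 lay after the start.

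The windows below give the 150 bases before the start in TAIR10.1, 5′ to 3′ along the gene, with site II in capitals, and none of them overlaps another annotated gene. AT2G31490 (chr2:13411790-13411939, plus strand) holds the most matches. mtACP2 (chr1:24250437-24250586, minus strand) and NDUFB10b (chr3:6322993-6323142, plus strand) were among the members that rose most. NDUFA9 (chr2:8785810-8785959, plus strand) has matches on both strands. NDUFA13a (chr1:1291113-1291262, minus strand) is shown because it holds 3 matches and did not pass the test. gamma CA2 (chr1:17323485-17323634, minus strand) is shown because it rose and holds none.
AT2G31490: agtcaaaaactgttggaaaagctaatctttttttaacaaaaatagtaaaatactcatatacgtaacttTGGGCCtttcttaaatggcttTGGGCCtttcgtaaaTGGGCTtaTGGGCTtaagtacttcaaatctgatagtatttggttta
mtACP2: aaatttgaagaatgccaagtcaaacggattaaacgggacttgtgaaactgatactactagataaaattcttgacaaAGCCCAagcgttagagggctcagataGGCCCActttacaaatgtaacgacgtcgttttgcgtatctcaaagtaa
NDUFB10b: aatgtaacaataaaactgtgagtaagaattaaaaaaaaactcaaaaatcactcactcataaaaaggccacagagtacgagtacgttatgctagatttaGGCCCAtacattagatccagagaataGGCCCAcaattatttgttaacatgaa
NDUFA9: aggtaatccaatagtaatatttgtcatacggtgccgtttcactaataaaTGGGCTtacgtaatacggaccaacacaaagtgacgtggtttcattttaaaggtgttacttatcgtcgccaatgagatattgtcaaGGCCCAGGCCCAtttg
NDUFA13a: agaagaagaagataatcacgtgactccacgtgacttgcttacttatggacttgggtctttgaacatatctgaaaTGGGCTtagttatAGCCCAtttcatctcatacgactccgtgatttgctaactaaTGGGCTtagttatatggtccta
gamma CA2: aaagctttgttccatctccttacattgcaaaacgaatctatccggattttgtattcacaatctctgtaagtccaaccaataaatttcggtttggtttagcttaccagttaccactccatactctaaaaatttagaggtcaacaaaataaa

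By response, site II was present in 24 of the 33 members that rose and in 5 of the 6 that did not pass the test. By place in the complex, it was found in 2 of 6 core genes, 6 of 7 further peripheral arm genes, 3 of 5 carbonic anhydrase genes and 14 of 16 membrane arm genes. Both acyl carrier genes and 2 of the remaining 3 genes held it. The telo box, AAACCCTA, which is common near the start of ribosomal protein genes, was found in 3 members (7.69%) and in 6.22% of all protein-coding genes. The mitochondrial dysfunction motif is bound by NAC factors in retrograde signalling from mitochondria to the nucleus. It was searched as the pattern CTTGNNNNNCANG, with any base at each N, and stricter forms were not searched. This pattern was found in 1 member, NDUFV1 (2.56%), against 2.14% of all protein-coding genes.

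**Figure D3:**
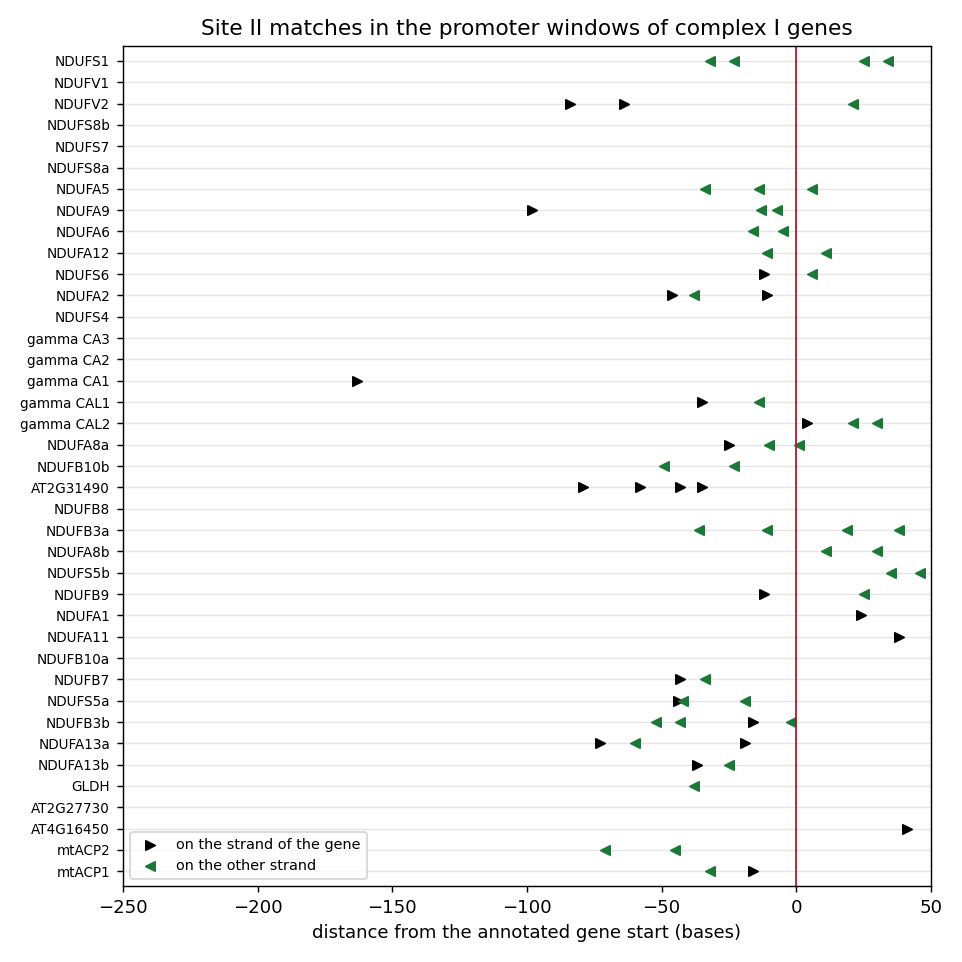
Site II matches (black triangles on the strand of the gene, green ones on the other strand) in the promoter windows of the 39 members, by distance in bases from the annotated gene start (red line). Most of the 69 matches crowd into the last 100 bases before the start, and 10 members have none.

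The 6 nuclear core genes encode the subunits that hold the flavin and the iron-sulfur clusters, and all 6 rose, by log2 fold changes of 0.28 to 0.51. NDUFS1 (AT5G37510), the large iron-sulfur protein, had 5164, 5258 and 4987 normalized counts in *lon1-2atg5-1*, against 3718, 3495 and 3574 in *atg5-1*. All *lon1-2atg5-1* libraries were above all *atg5-1* libraries, and it had the largest change of the core genes (log2 fold change 0.51, SE 0.06, adjusted p = 0.000295). NDUFV1 (AT5G08530), which binds NADH and the flavin, had 5283, 5223 and 4929 normalized counts in *lon1-2atg5-1*, against 3829.5, 3683 and 3854 in *atg5-1*, again with no overlap (log2 fold change 0.44, SE 0.06, adjusted p = 0.000668). Replicate 3 was the lowest *lon1-2atg5-1* library for both genes. NDUFV2 (AT4G02580), its iron-sulfur partner, had 2682, 2561 and 2574 normalized counts in *lon1-2atg5-1*, against 2087, 1903 and 2016 in *atg5-1* (log2 fold change 0.38, SE 0.06, adjusted p = 0.00129). NDUFS7 (AT5G11770), which carries the last cluster before ubiquinone, had 4576, 4346 and 4240.4 normalized counts in *lon1-2atg5-1*, against 3548, 3524 and 3233 in *atg5-1* (log2 fold change 0.35, SE 0.07, adjusted p = 0.00299). In NDUFV2 and NDUFS7 as well, the lowest *lon1-2atg5-1* library lay above the highest *atg5-1* library.

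NDUFS8 carries a further pair of iron-sulfur clusters and has 2 nuclear copies. NDUFS8a (AT1G79010) had 2189, 2087 and 2026 normalized counts in *lon1-2atg5-1*, against 1832, 1657 and 1703 in *atg5-1*, and the groups did not overlap (log2 fold change 0.28, SE 0.06, adjusted p = 0.00722). NDUFS8b (AT1G16700) had 1370.1, 1338 and 1211 normalized counts in *lon1-2atg5-1*, against 1022, 1003 and 1004 in *atg5-1*, also without overlap (log2 fold change 0.37, SE 0.06, adjusted p = 0.0018). The copies are 91.0% identical over 677 exonic bases, and the longest run they share is 41 bases, shown here because it is shorter than the stated read length, so that a read extending past it differs between the copies.
NDUFS8 shared run: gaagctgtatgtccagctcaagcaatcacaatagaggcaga
The log2 ratio of NDUFS8a over NDUFS8b was 0.68, 0.64 and 0.74 in *lon1-2atg5-1*, against 0.84, 0.72 and 0.76 in *atg5-1*, and these ranges overlapped (exact two-sided permutation p = 0.2).

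The 7 further genes of the peripheral arm were less uniform, with 5 that rose and 2 that did not pass the test. NDUFA5 (AT5G52840) rose most, with 119.9 ± 9.53 FPKM in *lon1-2atg5-1* and 77.9 ± 3.42 FPKM in *atg5-1* (SD, n = 3, log2 fold change 0.65, SE 0.06, adjusted p = 0.000118). NDUFA9 (AT2G20360), a nucleotide-binding subunit near the ubiquinone site, had 88.1 ± 4.30 FPKM in *lon1-2atg5-1* and 64.5 ± 3.03 FPKM in *atg5-1* (log2 fold change 0.48, SE 0.06, adjusted p = 0.000353). NDUFA6 (AT3G12260), an LYR protein that docks an acyl carrier, had 111 ± 9.42 FPKM in *lon1-2atg5-1* and 84.7 ± 4.94 FPKM in *atg5-1* (log2 fold change 0.42, SE 0.07, adjusted p = 0.00157). All 3 were higher in each *lon1-2atg5-1* library than in any *atg5-1* library.

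NDUFA12 (AT3G03100) and NDUFS6 (AT3G03070), which are joined late in assembly of the peripheral arm in animals and fungi, changed less. NDUFA12 had 120.2 ± 8.45 FPKM in *lon1-2atg5-1* and 105 ± 4.83 FPKM in *atg5-1* (log2 fold change 0.22, SE 0.06, adjusted p = 0.0184), and its groups were separate in normalized counts and overlapped in FPKM. NDUFS6 had 99.4 ± 3.71 FPKM in *lon1-2atg5-1* and 88.9 ± 3.0 FPKM in *atg5-1* (log2 fold change 0.19, SE 0.05, adjusted p = 0.0201). Both calls were lost under 6 of 14 alternatives. Leaving out replicate 2 of either genotype, or replicate 3 of *atg5-1*, was enough to lose them, with adjusted p up to 0.0745 for NDUFA12 and 0.0896 for NDUFS6. NDUFS4 (AT5G67590, also FRO1), a subunit whose loss leaves Arabidopsis with little complex I, had 1558, 1580.1 and 1578 normalized counts in *lon1-2atg5-1*, against 1577, 1608 and 1551 in *atg5-1*. These ranges overlapped and the means were almost equal (log2 fold change -0.01, SE 0.05, adjusted p = 0.925). NDUFA2 (AT5G47890), a thioredoxin-fold subunit, had 1563, 1638 and 1422 normalized counts in *lon1-2atg5-1*, against 1484, 1346 and 1327 in *atg5-1*. The lowest library of *lon1-2atg5-1* lay within the range of *atg5-1* (log2 fold change 0.15, SE 0.08, adjusted p = 0.118), and the gene passed when that library, replicate 3, was left out (adjusted p = 0.0302).

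The gamma carbonic anhydrases form the matrix domain at which assembly of the plant membrane arm begins. They split into 3 typical members, CA1 to CA3, and the more diverged CAL1 and CAL2. gamma CA3 (AT5G66510) had 2601, 2425 and 2318 normalized counts in *lon1-2atg5-1*, against 1587, 1360.4 and 1539.9 in *atg5-1*, with no overlap (log2 fold change 0.71, SE 0.08, adjusted p = 0.000193). gamma CA2 (AT1G47260) had 2752, 2721 and 2521 normalized counts in *lon1-2atg5-1*, against 1748, 1642 and 1612 in *atg5-1*, with no overlap either (log2 fold change 0.68, SE 0.07, adjusted p = 0.000105). gamma CA1 (AT1G19580) had 673, 594 and 567 normalized counts in *lon1-2atg5-1*, against 477, 494 and 517 in *atg5-1*, and its groups were separate but closer (log2 fold change 0.30, SE 0.08, adjusted p = 0.0157). Without *atg5-1* replicate 1 or 2 the gamma CA1 call was lost, with an adjusted p of up to 0.0606. The log2 ratio of gamma CA1 over gamma CA2 was -2.03, -2.20 and -2.15 in *lon1-2atg5-1*, against -1.87, -1.73 and -1.64 in *atg5-1*. The balance thus lay further towards gamma CA2 in each *lon1-2atg5-1* library (difference -0.38, exact two-sided permutation p = 0.1, the smallest that 3 libraries against 3 allow). gamma CA2 shares 805 exonic bases with AT1G47250 on the opposite strand, which had 3509 counts over the 6 libraries, and the strand setting of the counting is not given in the sources used here. A stretch of 172 bases of gamma CA2 is 87.8% identical to AT1G47420, a subunit of complex II.

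Of the CAL genes, gamma CAL1 passed the test and gamma CAL2 did not. gamma CAL1 (AT5G63510) had 1158, 1232 and 1150.2 normalized counts in *lon1-2atg5-1*, against 1101, 994 and 1043 in *atg5-1*. Its groups were separate by a narrow gap (log2 fold change 0.17, SE 0.06, adjusted p = 0.0476), and the call was lost under 12 of 14 alternatives, with adjusted p between 0.0520 and 0.163 in these. It held without *atg5-1* replicate 1 and without *lon1-2atg5-1* replicate 3, and was lost without any other single library. gamma CAL2 (AT3G48680) had 799, 763 and 763 normalized counts in *lon1-2atg5-1*, against 866, 833 and 840.0 in *atg5-1*. It was the only member with every *lon1-2atg5-1* library below every *atg5-1* library, and its difference did not pass the test (log2 fold change -0.13, SE 0.06, adjusted p = 0.096). The log2 ratio of gamma CAL1 over gamma CAL2 was 0.54, 0.69 and 0.59 in *lon1-2atg5-1*, against 0.35, 0.26 and 0.31 in *atg5-1*, a difference of 0.30 between the genotypes with separate groups (exact p = 0.1).

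Of the 16 genes of the membrane arm, 13 rose and 3 did not pass the test, with a median log2 fold change of 0.43. Most encode small accessory proteins that surround the proton channels. AT2G31490, a small subunit, had 156 ± 21.2 FPKM in *lon1-2atg5-1* and 105 ± 3.79 FPKM in *atg5-1* (log2 fold change 0.59, SE 0.09, adjusted p = 0.000699). NDUFB8 (AT5G47570) had 91.6 ± 10.8 FPKM in *lon1-2atg5-1* and 62.8 ± 2.62 FPKM in *atg5-1* (log2 fold change 0.57, SE 0.08, adjusted p = 0.000547). Both had separate groups. NDUFB9 (AT4G34700), an LYR protein at the tip of the arm that docks an acyl carrier, had 129 ± 10.2 FPKM in *lon1-2atg5-1* and 96.2 ± 4.48 FPKM in *atg5-1* (log2 fold change 0.45, SE 0.06, adjusted p = 0.000743). NDUFA1 (AT3G08610), the most abundant member, had 171 ± 18.0 FPKM in *lon1-2atg5-1* and 129.8 ± 2.80 FPKM in *atg5-1* (log2 fold change 0.42, SE 0.07, adjusted p = 0.00166). Both rose without overlap. NDUFA11 (AT2G42210), related to the import channel proteins of the Tim17 family, had 62.4 ± 4.65 FPKM in *lon1-2atg5-1* and 49.4 ± 3.63 FPKM in *atg5-1* (log2 fold change 0.36, SE 0.07, adjusted p = 0.0029). NDUFB7 (AT2G02050), a protein of the intermembrane space, had 68.8 ± 5.39 FPKM in *lon1-2atg5-1* and 58.9 ± 1.28 FPKM in *atg5-1* (log2 fold change 0.25, SE 0.06, adjusted p = 0.0109). Their groups were separate too.

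Among the 5 duplicated subunits in the membrane arm are NDUFA8 and NDUFS5, twin-cysteine proteins of the intermembrane space. NDUFA8a (AT3G06310) had 601, 577 and 486 normalized counts in *lon1-2atg5-1*, against 324, 317 and 352 in *atg5-1* (log2 fold change 0.75, SE 0.10, adjusted p = 0.000445). NDUFA8b (AT5G18800) had 1037, 948 and 991 normalized counts in *lon1-2atg5-1*, against 710.4, 624 and 707 in *atg5-1* (log2 fold change 0.54, SE 0.07, adjusted p = 0.000509). Both copies rose without overlap, and the log2 ratio of NDUFA8a over NDUFA8b was -0.79, -0.72 and -1.03 in *lon1-2atg5-1*, against -1.13, -0.97 and -1.01 in *atg5-1*, with overlapping ranges (exact p = 0.3).

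NDUFS5a (AT3G62790) had 810.2, 769.3 and 683.6 normalized counts in *lon1-2atg5-1*, against 683.5, 612.3 and 606.6 in *atg5-1*. The gap between its groups was 0.11 normalized counts (log2 fold change 0.25, SE 0.09, adjusted p = 0.0365), and the call was lost under 8 of 14 alternatives, with an adjusted p of up to 0.124. Among these were the fits that lacked replicate 2 or 3 of *atg5-1*, or replicate 1 or 2 of *lon1-2atg5-1*. NDUFS5b (AT2G47690) had 891, 804 and 675 normalized counts in *lon1-2atg5-1*, against 609.6, 528 and 580.3 in *atg5-1*, without overlap (log2 fold change 0.46, SE 0.11, adjusted p = 0.00749). It shares 45 exonic bases with AT2G47700 on the opposite strand, which had 11159 counts over the 6 libraries. The log2 ratio of NDUFS5a over NDUFS5b was -0.14, -0.06 and 0.02 in *lon1-2atg5-1*, against 0.17, 0.21 and 0.06 in *atg5-1*, lower in each *lon1-2atg5-1* library (difference -0.21, exact p = 0.1).

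The balance of the NDUFB10 copies varied least among libraries of a genotype. NDUFB10a (AT1G49140) had 1178, 1129.5 and 1052 normalized counts in *lon1-2atg5-1*, against 917, 839.9 and 897 in *atg5-1* (log2 fold change 0.34, SE 0.07, adjusted p = 0.00338). NDUFB10b (AT3G18410) had 2082, 1990.1 and 1856 normalized counts in *lon1-2atg5-1*, against 1219, 1163 and 1227 in *atg5-1* (log2 fold change 0.72, SE 0.06, adjusted p = 7.99e-05). Both rose, and the log2 ratio of NDUFB10a over NDUFB10b was -0.82, -0.82 and -0.82 in *lon1-2atg5-1*, against -0.41, -0.47 and -0.45 in *atg5-1*. It varied by an SD of 0.0022 among *lon1-2atg5-1* libraries and 0.030 among *atg5-1* libraries, and the genotypes differed by -0.37 (exact p = 0.1). The promoter of NDUFB10b shown above holds 2 site II matches, and that of NDUFB10a holds 0. Other pairs went the other way, with fewer matches in the copy of higher fold change. These were gamma CA2 (0, against 1 in gamma CA1), gamma CAL1 (2, against 3 in gamma CAL2) and NDUFS5b (2, against 3 in NDUFS5a). NDUFB3a and NDUFB3b held 4 each. A tie between site II and the ratios was not tested.

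NDUFB3a (AT1G14450) had 2129.8, 1974 and 1775 normalized counts in *lon1-2atg5-1*, against 1325, 1357 and 1344 in *atg5-1*, and rose without overlap (log2 fold change 0.55, SE 0.08, adjusted p = 0.000556). NDUFB3b (AT2G02510) had 1279, 1198 and 1097 normalized counts in *lon1-2atg5-1*, against 1122, 1037 and 942 in *atg5-1*, with overlapping groups (log2 fold change 0.20, SE 0.09, adjusted p = 0.0737). It passed when replicate 3 of *lon1-2atg5-1* was left out (adjusted p = 0.0235). Their log2 ratio, a over b, was 0.74, 0.72 and 0.69 in *lon1-2atg5-1*, against 0.24, 0.39 and 0.51 in *atg5-1*, higher in each *lon1-2atg5-1* library (difference 0.34, exact p = 0.1). NDUFA13 (GRIM-19 in animals) was the subunit of which neither copy passed the test. NDUFA13a (AT1G04630, also MEE4) had 446, 500.4 and 494 normalized counts in *lon1-2atg5-1*, against 469, 403 and 446 in *atg5-1* (log2 fold change 0.13, SE 0.09, adjusted p = 0.242). NDUFA13b (AT2G33220) had 1166, 1260.3 and 1084 normalized counts in *lon1-2atg5-1*, against 1185, 1139.9 and 1114 in *atg5-1* (log2 fold change 0.03, SE 0.07, adjusted p = 0.738). Both pairs of groups overlapped, and so did the log2 ratios of NDUFA13a over NDUFA13b, which were -1.39, -1.33 and -1.13 in *lon1-2atg5-1*, against -1.34, -1.50 and -1.32 in *atg5-1* (exact p = 0.5).

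The mitochondrial acyl carrier proteins serve fatty acid synthesis and, bound to LYR proteins, are subunits of complex I in animals and fungi. mtACP2 (AT1G65290) had 2531, 2439.6 and 2059.8 normalized counts in *lon1-2atg5-1*, against 1399, 1213 and 1270.1 in *atg5-1*. This was the largest change of all members, with no overlap (log2 fold change 0.86, SE 0.09, adjusted p = 0.00018). mtACP1 (AT2G44620) had 1359, 1485 and 1375 normalized counts in *lon1-2atg5-1*, against 1225, 1174 and 1157 in *atg5-1*, with no overlap and a smaller change (log2 fold change 0.25, SE 0.06, adjusted p = 0.00967). The log2 ratio of mtACP1 over mtACP2 was -0.90, -0.72 and -0.58 in *lon1-2atg5-1*, against -0.19, -0.05 and -0.13 in *atg5-1*, the widest shift of the 9 pairs (difference -0.61, exact p = 0.1). With Benjamini-Hochberg adjustment of the exact tests over the 9 pairs, each of the 6 pairs with separate groups had an adjusted p of 0.15. Separate groups were common in single genes: of 20157 tested, 6512 had every *lon1-2atg5-1* library above every *atg5-1* library and 6231 below. Ratios of other gene pairs were not computed, so whether such shifts are particular to complex I was not tested. The longest run that mtACP1 and mtACP2 share is 10 bases. mtACP2 overlaps AT1G65280 on the opposite strand by 36 exonic bases, and that gene had 4960 counts over the 6 libraries. Both mtACP promoters hold 2 site II matches.

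**Figure D4:**
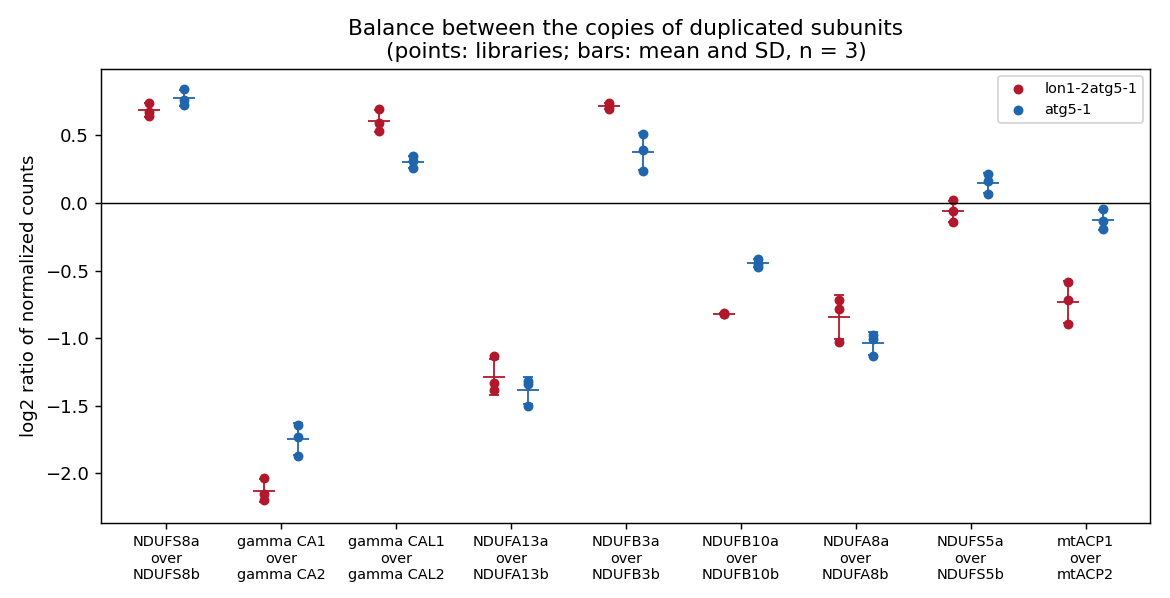
Log2 ratio of normalized counts of the copies of 9 duplicated subunits in each library, *lon1-2atg5-1* left and *atg5-1* right (points are libraries, bars the mean and SD, n = 3). The mtACP pair is furthest apart, and the NDUFS8, NDUFA13 and NDUFA8 pairs overlap.

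GLDH (AT3G47930) catalyses the last step of ascorbate synthesis and is bound to intermediates of complex I assembly in plants. It had 1107, 1154 and 1086 normalized counts in *lon1-2atg5-1*, against 738, 715 and 637 in *atg5-1*, and rose without overlap (log2 fold change 0.68, SE 0.07, adjusted p = 0.000156). AT2G27730 and AT4G16450 carry no name of a human homologue here. AT2G27730 had 44.9 ± 4.47 FPKM in *lon1-2atg5-1* and 31.9 ± 2.84 FPKM in *atg5-1* (log2 fold change 0.52, SE 0.08, adjusted p = 0.000959). AT4G16450 had 91.3 ± 7.34 FPKM in *lon1-2atg5-1* and 72.8 ± 2.16 FPKM in *atg5-1* (log2 fold change 0.35, SE 0.06, adjusted p = 0.0021). In both, every *lon1-2atg5-1* library lay above every *atg5-1* library.

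Levels were compared between genes per length, as FPKM. The 39 members together summed to 3267, 3108 and 2792 FPKM in the *lon1-2atg5-1* libraries, against 2456, 2284 and 2319 FPKM in the *atg5-1* libraries. They took 0.332% ± 0.0247 of all counts in *lon1-2atg5-1* and 0.253% ± 0.0104 in *atg5-1* (SD, n = 3 each), and the ranges of the shares did not overlap. Replicate 3 of *lon1-2atg5-1* was the lowest of its group in both measures. NDUFA1 had the highest mean level, with 184, 178 and 151 FPKM in *lon1-2atg5-1*, against 132, 130.4 and 127 FPKM in *atg5-1*. It was followed by NDUFS7, with 172, 159.6 and 151 FPKM in *lon1-2atg5-1*, against 135, 130.3 and 120.5 FPKM in *atg5-1*, and within each genotype the ranges of these 2 genes overlapped.

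The lowest 3 members in each genotype were gamma CA1, GLDH and NDUFA8a, in different orders. gamma CA1 had 16.3 FPKM in *lon1-2atg5-1* and 13.5 FPKM in *atg5-1*. GLDH had 19.6 FPKM in *lon1-2atg5-1* and 12.5 FPKM in *atg5-1*. NDUFA8a had 18.4, 17.2 and 14.1 FPKM in *lon1-2atg5-1*, against 9.97, 9.52 and 10.6 FPKM in *atg5-1*. The highest mean was 10.5 times the lowest in *lon1-2atg5-1* and 12.9 times in *atg5-1*. The order of the members was much the same in both genotypes, with a Spearman rho of 0.957 over 39 genes that share the same 6 libraries. The widest moves were those of NDUFS4, which ranked 17 in *lon1-2atg5-1* and 8 in *atg5-1*, and of mtACP2, which ranked 6 in *lon1-2atg5-1* and 14 in *atg5-1*. The log2 fold change was only loosely tied to a member's level in *atg5-1* (Pearson r -0.12) or to its exonic length (r 0.30), both given as a description over 39 genes.

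**Figure D5:**
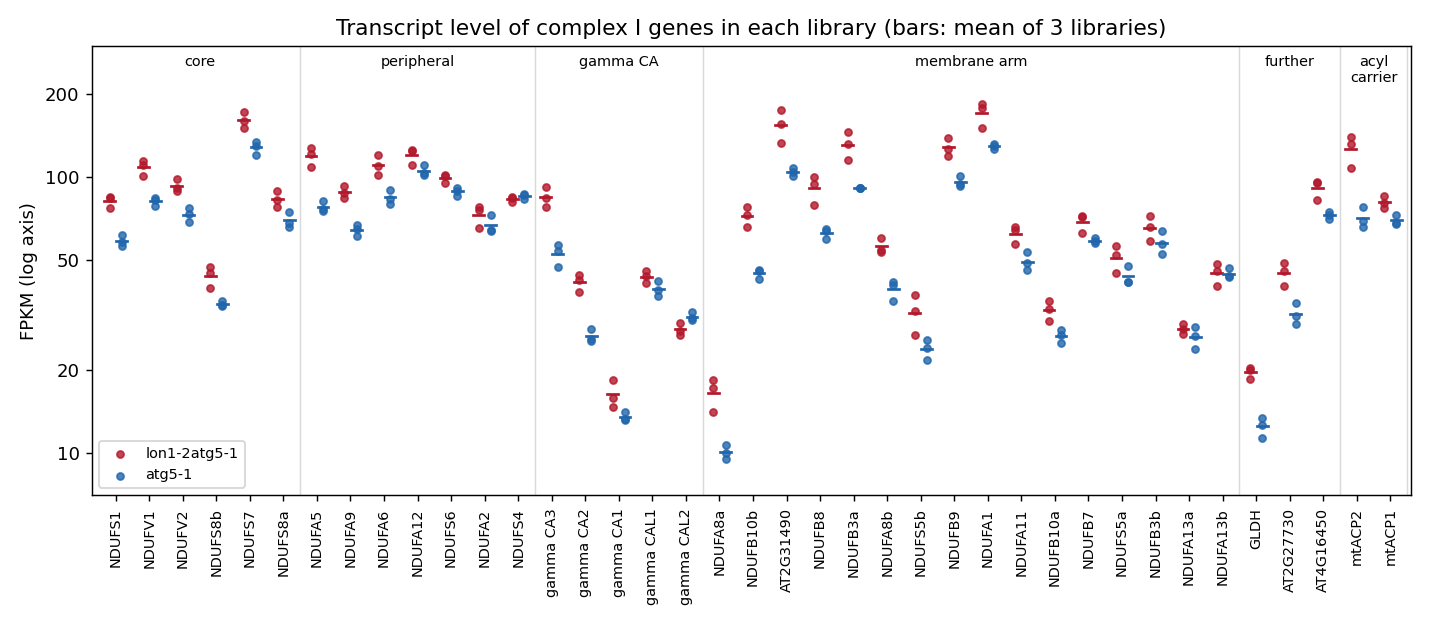
FPKM (log axis) of each member in each library, *lon1-2atg5-1* left and *atg5-1* right, with bars at the mean of 3 libraries. Levels run from NDUFA8a in *atg5-1*, with a lowest library of 9.52 FPKM, to NDUFA1 in *lon1-2atg5-1*, with a mean of 171 FPKM, and gamma CAL2 is the member whose *lon1-2atg5-1* points all lie below its *atg5-1* points.

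The other genes that a complex I needs were read in the same fit. Of 7 further subunit genes, 5 rose and 0 fell, with a median log2 fold change of 0.29, from AT3G07480 with 0.58 ± 0.07 (SE) to AT2G42310 with -0.11 ± 0.05, which did not pass the test. Of 7 assembly factors, 3 rose and 0 fell, a share of 42.9% higher against 27.7% of all genes tested, and in the other 4 the groups overlapped. The highest, AT1G62730, a homologue of human NDUFAF6, had 8.61, 7.89 and 7.59 FPKM in *lon1-2atg5-1*, against 3.95, 2.74 and 3.86 FPKM in *atg5-1* (log2 fold change 1.22, SE 0.14, adjusted p = 0.000264), and the lowest, AT3G60150, had 3.10 FPKM in *lon1-2atg5-1* and 3.01 FPKM in *atg5-1* with overlapping groups. Of 11 factors that splice, edit or trim the mitochondrial nad transcripts, 6 rose (54.5%) and 0 fell. BIR6 (AT3G48250), needed to splice an intron of nad7, had 4.56, 4.29 and 3.32 FPKM in *lon1-2atg5-1*, against 1.47, 1.40 and 1.40 FPKM in *atg5-1*. It rose more than any member (log2 fold change 1.54, SE 0.14, adjusted p = 7.51e-05). The splicing factor mCSF1 (AT4G31010) had 5.27, 6.43 and 6.46 FPKM in *lon1-2atg5-1*, against 7.86, 8.27 and 6.46 FPKM in *atg5-1*, and did not pass the test (log2 fold change -0.28, SE 0.14, adjusted p = 0.111).

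Nuclear genes of the other respiratory complexes were higher to a similar or larger extent. In complex II (succinate dehydrogenase) all 9 genes tested rose, with a median log2 fold change of 0.62, from SDH1-1 (AT5G66760) with 0.83 to SDH6 (AT1G08480) with 0.40. In complex III 13 of 15 rose, with a median of 0.50, from AT2G40765 with 0.76 to AT2G01090 with 0.01, which did not pass the test. In complex IV 8 of 9 rose, with a median of 0.40, from AT2G47380 with 0.60 to AT4G28060 with -0.08, again not past the test. In complex V (ATP synthase) all 12 rose, with a median of 0.64, from AT1G51650 with 0.85 to AT5G08670, a beta subunit gene with near-identical copies, with 0.32. Over complexes II to V, 42 of 45 genes rose and 0 fell, with a median of 0.52, against 33 of 39 and 0.38 in complex I. The difference between these medians was not tested. Among the complex I members, NDUFS4, NDUFA5, NDUFA6, NDUFA13b, NDUFB3a, NDUFB3b, NDUFB10a and AT4G16450 also overlap exons of a gene on the opposite strand, by 25 to 748 bases, and the overlapping genes had 0 to 2811 counts over the 6 libraries. The annotated spans of NDUFS8b, NDUFA13a and NDUFB10a overlap a gene on the same strand (AT1G16705, AT1G04625 and AT1G49160). The effect of these overlaps on the counts was not tested.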

How the data were processed

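RNA of 6 Arabidopsis seedling libraries was analysed. The authors made stranded mRNA libraries, used Trimmomatic and HISAT2 to trim reads and align them to TAIR10, and deposited raw read counts per gene from HTSeq. The deposited FPKM values, credited by the authors to Cufflinks, are the count over gene length and library total, with lengths that matched TAIR10.1 for 23819 of 23819 genes, so they are no second measurement. Totals were 21964283 to 23929531 counts, and normalization factors 0.962 to 1.03. Libraries of 1 genotype differed by more than sampling noise in every pair. The chi-square over degrees of freedom was 3.83 to 5.65 in *atg5-1*. It was 12.1 to 31.8 in *lon1-2atg5-1*, and highest between replicates 1 and 3.

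Counts were filtered with filterByExpr, scaled by TMM and fitted in edgeR 4.0.16 (R 4.3.3) for a quasi-likelihood test of 20157 genes, with Benjamini-Hochberg adjustment over all of them. Normalized counts are counts at the mean effective library size. Standard errors were obtained from the F statistic, as the size of the log2 fold change over its square root. Ratios of copies were compared by exact permutation tests in scipy 1.17.1, and the p-values printed with the ratios are unadjusted unless stated. Alternatives were DESeq2 1.42.0, other scalings and filters, limma 3.58.1 on log2 FPKM with pseudocounts of 1 and 0.1, the replicate block and each library left out. Simulated counts of 20031 genes served to check the edgeR, DESeq2 and limma fits, but not the ratios of copies or the promoter search. Promoters and exons came from RefSeq TAIR10.1, and exons were compared with BLAST 2.17.0, keeping matches of at least 100 bases and 80% identity.

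The members and lists were chosen with earlier results of these data known. Values in every library are given for the core, gamma carbonic anhydrase and duplicated genes, GLDH, and the 5 members with the highest and the 5 with the lowest fold change, and each list is given by its highest and lowest gene. From the list of further subunits, 5 identifiers were dropped by their product names alone, which name other proteins. Whether these 5 belong to complex I was not tested. The rule was not applied to the members, of which AT2G31490 and AT2G27730 also carry product names of other proteins.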

Additional observations from a re-analysis of the deposited data

How the results depend on the processing

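The count of complex I members higher in *lon1-2atg5-1* was 33, and lay between 29 and 33 under the 8 alternatives of test, scaling, filter and unit: DESeq2 gave 31, DESeq2 size factors in edgeR 32, scaling by library size 29, no filter 32, a minimum of 10 counts in every library 32, the replicate block 33, and limma on log2(FPKM + 1) and log2(FPKM + 0.1) 29 each. With 1 library left out it lay between 28 (without *atg5-1* replicate 2) and 35 (without *lon1-2atg5-1* replicate 3). The count of members that rose by more than 1.5-fold lay between 7 and 10, the study's unadjusted threshold gave 8, and the count lower was 0 in each of these fits. The members' median lay between 0.35 and 0.43, and that of complexes II to V between 0.47 and 0.58. NDUFA13b and NDUFS4, neither past the test, changed sign: NDUFA13b gave -0.00037 and -0.00045 with limma at a pseudocount of 1 and 0.1 and -0.024 without *lon1-2atg5-1* replicate 2, and NDUFS4 gave 0.0068 without *atg5-1* replicate 2 and 0.0018 without *lon1-2atg5-1* replicate 1. The cause was not tested. Without 1 library in turn, NDUFA13b lay between -0.024 and 0.085 and NDUFS4 between -0.021 and 0.0068. Among the other values of single genes, 34 lost the call, all of them NDUFS6, NDUFA12, gamma CA1, gamma CAL1 or NDUFS5a, and 3 gained it: NDUFB3b with the replicate block, and NDUFB3b and NDUFA2 without *lon1-2atg5-1* replicate 3. FPKM was no check of the pair differences, because library totals and gene lengths cancel in them. Without 1 library the mtACP difference lay between -0.68 and -0.53. Site II was found in 23 members before the start alone, against 29 in the whole window.

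The replicate numbers were shared by the genotypes, but same-numbered libraries correlated by -0.037, -0.12 and -0.0099 in their deviations from the group means, so the numbers were not taken to pair samples. With the replicate block 33 members were higher, gamma CAL1 lost its call and NDUFB3b gained one. With 3 libraries per genotype the standard errors of the members lay between 0.053 and 0.11 on the log2 scale. In simulated counts with these library sizes and equal variation in both genotypes, edgeR recovered 84 of 108 genes changed by 1.5-fold. A further 92 of the 20031 genes were given a log2 fold change of 1.0. In the data, by contrast, 5575 of 20157 genes were higher and 5206 lower. Whether small changes of the members were missed was therefore not tested. Biological coefficients of variation in the data were unequal, unlike the simulated ones, with 0.135 in *lon1-2atg5-1* and 0.0631 in *atg5-1*.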
